A study of Mus musculus with 14 samples.

Results

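The results concern 5 mouse genes, Tagap, Wdfy1, Abhd1, Med1 and Rin3, put forward as genes whose level tells apart the 2 mouse lines of a study of ureteric bud cells. They are 5 of 55487 genes in the deposited count table and were taken by name, together with their 28 rows among 109963 transcripts. The names were chosen on an earlier comparison of the lines in these same libraries. The difference between the lines is therefore given for these genes as a description, with no test. All 5 passed the filter on low counts.

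The study used GFP-sorted cells of the ureteric bud, from which the kidney's collecting duct system grows, taken from mouse embryos at E13.5. In every group the GFP and the Cre recombinase come from a Hoxb7-Cre transgene, which acts in the ureteric bud lineage. The Cep120 line gave 8 libraries, of which 5 carry the genotype label Cep120 KO (replicates 2, 4, 5, 6 and 7) and 3 are controls. The Pkd1 line gave 6 libraries, of which 3 carry the label Pkd1 KO and 3 are controls. All controls are WT by genotype label and heterozygous by title. The labels name no strain, litter, sex or sequencing batch and do not say whether libraries came from separate embryos or from pools. P-values therefore rest on the variation among libraries, part of which may be technical, and anything else in which the libraries of the lines differed cannot be told apart from the line.

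Tagap is a GTPase-activating protein that is best known from activated T cells. Wdfy1 carries WD repeats and a FYVE domain, binds the endosomal lipid phosphatidylinositol 3-phosphate (PI3P) and serves as an adaptor for Toll-like receptors. Abhd1 belongs to the alpha/beta hydrolase domain family. Med1 is the subunit through which the Mediator complex, the bridge between transcription factors and RNA polymerase II, meets nuclear receptors. Rin3 is a guanine nucleotide exchange factor that activates the endosomal GTPase RAB5.

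Depth ran from 11347628 to 27967540 counts per library, and no pair among the 14 libraries held identical values. Reads of Cep120 were not fewer in the libraries labelled Cep120 KO: the level was 15.6 ± 5.34 CPM (reads scaled to library size by TMM; SD, n = 5) against 8.83 ± 2.18 (n = 3) in their controls (log2 difference 0.83, SE 0.31, edgeR adjusted p = 0.0832). Pkd1 was at 2.5 ± 0.16 CPM in the libraries labelled Pkd1 KO and 3.93 ± 0.635 in their controls (n = 3 each, log2 difference -0.65, SE 0.43, edgeR adjusted p = 1.0). A count over the whole gene need not fall when only part of it is deleted, so neither value settles a label. Libraries 4, 5, 6 and 7 labelled Cep120 KO stood apart: their TMM scaling factors were 1.15 to 1.32, against 0.862 to 0.966 in the other libraries. Summed levels of 6 nephron progenitor markers ran from 27.7 to 761 CPM over all libraries labelled Cep120 KO and reached at most 63.6 CPM in any other group. The 12 ureteric bud markers were detected in all groups. Their sums ran from 983 to 2810 CPM in the libraries labelled Cep120 KO and from 1750 to 2020 CPM over the other groups. Ret, Wnt11, Gata3, Emx2, Wnt9b, Cdh1, Epcam, Krt8 and Krt18 were lower in both libraries 6 and 7 than in 4 and 5. Pax2 and Hoxb7 were higher in 6 and 7, and Lhx1 overlapped. Cdh1 was at 305.0 and 338.0 CPM in libraries 4 and 5, against 20.2 and 61.9 CPM in 6 and 7.

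Tagap was low in every library of the Pkd1 line and readily counted in every library of the Cep120 line. Its levels, scaled by TMM, were 8.34, 9.69 and 13.8 CPM in Cep120-line controls 1 to 3. They were 8.26, 17.8, 12.7, 7.49 and 7.32 CPM in libraries 2, 4, 5, 6 and 7 labelled Cep120 KO. In the Pkd1 line they were 0.282, 0.137 and 0.135 CPM in controls 1 to 3 and 0.185, 0.19 and 0.415 CPM in libraries 1 to 3 labelled Pkd1 KO. The lines did not overlap: the lowest library of the Cep120 line was 17.7 times the highest of the Pkd1 line, in which only 2 to 6 reads per library were assigned to the gene. The fitted log2 difference of the Cep120 line from the Pkd1 line was 5.57 (SE 0.36).

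Tagap lies on the plus strand of chromosome 17 at 7926000 to 7934897 (GRCm38, GENCODE M21 annotation), 16.6 Mb from the start of Pkd1. Tagap1, a relative with its own row in the files, lies 0.97 Mb away on the minus strand at 6955011 to 6961156. The last 2 exons of Tagap, out of 10, match the last 2 exons of Tagap1, out of 4. Over 2131 aligned bases the annotated transcripts differed at 14 bases and 1 gap base, an identity of 99.3%, and the longest identical run was 386 bases. The stretch below, 90 coding bases of the last exon (Tagap at chr17:7933004-7933093, Tagap1 at chr17:6956814-6956903), shows how alike they are, with the 2 differing bases in capitals.
Tagap: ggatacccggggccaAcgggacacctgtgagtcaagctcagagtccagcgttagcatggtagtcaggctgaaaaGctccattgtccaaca
Tagap1: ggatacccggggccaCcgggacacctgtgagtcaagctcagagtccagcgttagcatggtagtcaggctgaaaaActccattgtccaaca
Upstream of the shared exons the transcripts part. The next pair shows the last 30 bases before the shared exons in lower case, which differed at 21 positions, and the first 30 bases of the second last exon in capitals. That exon spans chr17:7932131-7932245 in Tagap and chr17:6957654-6957768 in Tagap1.
Tagap: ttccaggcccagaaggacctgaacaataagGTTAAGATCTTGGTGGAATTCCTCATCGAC
Tagap1: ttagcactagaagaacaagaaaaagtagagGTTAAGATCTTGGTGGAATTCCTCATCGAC
Of the 3046 distinct 31-base words in the annotated Tagap transcripts, 63.4% also occur in another gene and 54.9% occur in Tagap1. Reads from these stretches can be split between the genes by the authors' counting, whose treatment of such reads is not given in the sources used here, so the level of each of these genes is uncertain.

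Tagap1 was counted in both lines. Its level was 33.1 ± 6.21 CPM (SD, n = 8) in the Cep120 line, between 25.2 and 40.1, and 43.8 ± 10.8 CPM (n = 6) in the Pkd1 line, between 33.6 and 63.7. The lines overlapped, and the log2 difference of -0.38 (SE 0.16) was not past the threshold (edgeR adjusted p = 0.407 over all genes, unadjusted p = 0.0305). The summed CPM of Tagap and Tagap1 was 43.7 ± 8.58 in the Cep120 line and 44.0 ± 10.9 in the Pkd1 line, so the sum differed by less than the spread between libraries. Tagap made up between 17.5% and 33.0% of that sum in libraries of the Cep120 line and between 0.392% and 0.656% in those of the Pkd1 line. Exact (Clopper-Pearson) 95% intervals, which cover counting error only, give the precision of a single share and are no test of the lines: the share of 17.5% (Cep120-line control 1) had bounds of 14.9% and 20.3%, and that of 0.656% (Pkd1-line control 1) had bounds of 0.241% and 1.42%.

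**Figure D1:**
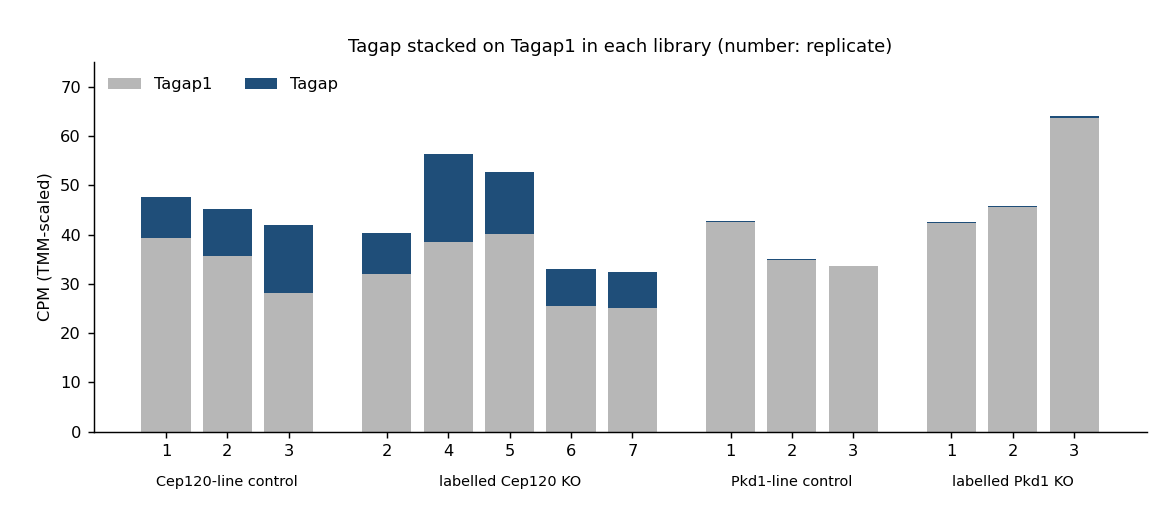
Stacked bars give the CPM (TMM-scaled) of Tagap1 (grey) and Tagap (blue) in each of the 14 libraries, grouped by label, with the replicate number under each bar. Tagap forms 17.5% to 33.0% of the bar in the 8 libraries of the Cep120 line and under 1% of it in the 6 of the Pkd1 line.

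Wdfy1, on the minus strand of chromosome 1 at 79702262 to 79776143, was also higher in the Cep120 line. Its levels were 52.3, 39.5 and 35.7 CPM in Cep120-line controls 1 to 3 and 25.3, 76.4, 71.8, 35.8 and 27.9 CPM in libraries 2, 4, 5, 6 and 7 labelled Cep120 KO. They were 3.43, 1.83 and 2.84 CPM in Pkd1-line controls 1 to 3 and 3.24, 4.14 and 4.7 CPM in libraries 1 to 3 labelled Pkd1 KO. The lowest library of the Cep120 line was 5.38 times the highest of the Pkd1 line, and the log2 difference was 3.76 (SE 0.31). Unlike Tagap, Wdfy1 is mostly unique in sequence: 3.33% of its 31-base words occur in another gene, among them Mrpl44, which overlaps its start by 126 bases on the other strand. Mrpl44 itself was at 101.0 CPM in the Cep120 line and 112.0 CPM in the Pkd1 line (log2 difference -0.11, SE 0.13, edgeR adjusted p = 0.754).

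The reads of Wdfy1 were spread over several transcripts. Over the transcript rows used here, which held 96.4% of the gene's reads, the coding transcript ENSMUST00000113513 took 62.4% ± 11.7 (SD, n = 8) in the Cep120 line and 42.5% ± 36.8 (n = 6) in the Pkd1 line. ENSMUST00000187005, annotated as a target of nonsense-mediated decay, had between 49.9 and 239.0 reads in each library of the Cep120 line. In the Pkd1 line it had 7.8 reads, all in 1 library. The spread of the shares was wide in the Pkd1 line, where the gene's few reads were divided among rows.

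Abhd1, on the plus strand of chromosome 5 at 30950066 to 30955091, followed the same order at a lower level. It was at 4.82, 10.1 and 6.08 CPM in Cep120-line controls 1 to 3 and at 4.13, 4.53, 7.51, 6.16 and 4.23 CPM in libraries 2, 4, 5, 6 and 7 labelled Cep120 KO. It was at 0.516, 0.137 and 0.451 CPM in Pkd1-line controls 1 to 3 and at 0.648, 0.228 and 0.83 CPM in libraries 1 to 3 labelled Pkd1 KO. The lowest library of the Cep120 line was 4.98 times the highest of the Pkd1 line, and the log2 difference was 3.75 (SE 0.39).

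Abhd1 overlaps Preb, a gene on the other strand, over 4239 bases, and 75.9% of its 31-base words are the reverse or direct match of Preb sequence. The library kit does not mark strand, so reads of the overlap cannot be told apart. Preb did not separate the lines: it was at 42.4 ± 23.0 CPM in the Cep120 line and 28.9 ± 1.32 CPM in the Pkd1 line (log2 difference 0.4, SE 0.24, edgeR adjusted p = 0.553). The files label Abhd1 a polymorphic pseudogene, a gene intact in some mouse strains and not in others. Its annotated transcripts differ here by a single base, which ENSMUST00000201125 contains and ENSMUST00000006814, labelled protein coding, skips. The base, at chr5:30954155-30954155 (GRCm38), is in capitals below within the stretch chr5:30954141-30954169.
Abhd1 with the base: tcgcaggactgaccAttgtctgcatgttg
Abhd1 without the base: tcgcaggactgaccttgtctgcatgttg
In the Cep120 line all 1063.3 transcript reads of Abhd1 were assigned to the transcript with the base. In the Pkd1 line that transcript held the reads of 4 libraries, and the one without the base held those of controls 2 and 3, with 3.36 and 9.82 reads. The transcripts also differ in length, at 1352 bases with the base and 1309 without it, so an assignment need not rest on that base. Those in the Pkd1 line rest on few reads as well. The assignments therefore do not show which base the libraries of either line carried.

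Med1 went the other way. This gene, on the minus strand of chromosome 11 at 98152154 to 98193293, was at 64.3, 75.5 and 32.7 CPM in Cep120-line controls 1 to 3 and at 39.3, 52.3, 52.5, 75.3 and 87.7 CPM in libraries 2, 4, 5, 6 and 7 labelled Cep120 KO. It was at 232.0, 233.0 and 256.0 CPM in Pkd1-line controls 1 to 3 and at 184.0, 211.0 and 193.0 CPM in libraries 1 to 3 labelled Pkd1 KO. The lowest library of the Pkd1 line was 2.1 times the highest of the Cep120 line, and the log2 difference was -1.87 (SE 0.21). Its coding transcript ENSMUST00000107545 took 95.7% ± 1.67 (SD, n = 8) and 98.6% ± 0.625 (n = 6) of the transcript reads in the Cep120 and Pkd1 lines, over rows that held 71.4% of the gene's reads.

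Rin3 did not separate the lines, which goes against its choice as a marker of them. The gene lies on the plus strand of chromosome 12 at 102283048 to 102390855, and none of its 31-base words occurs in another gene. It was nearly absent from the Cep120-line controls, with 4, 1 and 0 reads in controls 1 to 3 (0.235, 0.0411 and 0.0 CPM). It was at 2.69, 1.23, 1.27, 2.76 and 3.09 CPM in libraries 2, 4, 5, 6 and 7 labelled Cep120 KO. In the Pkd1 line it was at 2.58, 2.56 and 5.46 CPM in controls 1 to 3 and at 4.63, 1.52 and 1.18 CPM in libraries 1 to 3 labelled Pkd1 KO. The Cep120-line controls lay below all other libraries, and the libraries labelled Cep120 KO overlapped the Pkd1 line. The log2 difference between the lines was -2.67 (SE 0.53) over all groups, -5.22 (SE 0.9) between the controls and -0.13 (SE 0.62) between the libraries labelled KO.

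**Figure D2:**
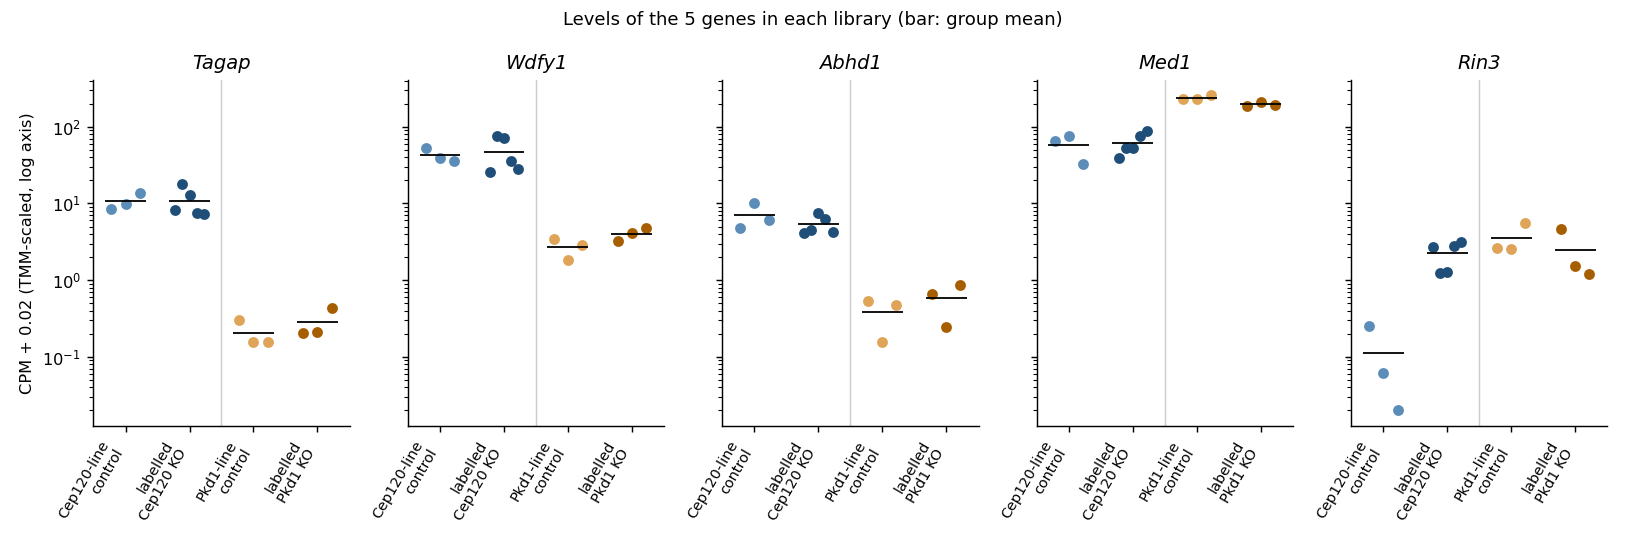
Each point is a library's CPM + 0.02 (TMM-scaled, log axis) for the gene named above the panel, with a bar at the group mean. Tagap, Wdfy1 and Abhd1 are higher and Med1 is lower in all 8 libraries of the Cep120 line than in all 6 of the Pkd1 line, while Rin3 is low only in the 3 Cep120-line controls.

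Without overlap between the lines were thus 4 of the 5 genes, against 0.806% of the 16876 genes tested. In the edgeR test of the lines over all genes, 88 were called at an adjusted p under 0.05 (0.521%), 66 higher and 22 lower in the Cep120 line. Since the 5 genes were chosen on this contrast, nothing is read from their share. For the 4 genes without overlap, the sign had to be the same between the controls of the lines as between the libraries labelled KO. On the log2 scale the differences, controls first, were 5.8 (SE 0.52) and 5.34 (SE 0.5) for Tagap and 3.97 (SE 0.46) and 3.55 (SE 0.43) for Wdfy1. They were 4.23 (SE 0.57) and 3.27 (SE 0.53) for Abhd1 and -2.06 (SE 0.32) and -1.67 (SE 0.27) for Med1. Omitting libraries 4, 5, 6 and 7 left library 2 as the only one labelled Cep120 KO. The log2 differences were then 5.37 for Tagap, 3.29 for Wdfy1, 3.56 for Abhd1 and -2.2 for Med1. The number of genes called was 945 without library 2 labelled Cep120 KO.

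Between genes, levels were compared as TPM, which the authors deposited and which accounts for transcript length. In the Cep120 line the order was Wdfy1 (22.3 ± 10.9, SD, n = 8), Med1 (16.6 ± 6.91), Abhd1 (5.37 ± 1.91), Tagap (4.05 ± 1.95) and Rin3 (0.522 ± 0.496). Wdfy1 and Med1 lay within each other's spread, as did Abhd1 and Tagap. In the Pkd1 line the order was Med1 (44.5 ± 6.5, SD, n = 6), Wdfy1 (2.42 ± 0.794), Rin3 (0.848 ± 0.525), Abhd1 (0.366 ± 0.187) and Tagap (0.0692 ± 0.0377). Med1 was thus the most abundant of the 5 in the Pkd1 line. The mean of Abhd1 there lay within the SD of Rin3, but that of Rin3 lay outside the SD of Abhd1.

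The comparison of each KO label with its own controls is a different contrast of the same libraries. It was tested for Tagap, Wdfy1, Abhd1 and Med1, whose controls and KO-labelled libraries lay on the same side of the other line. That choice used values of the same libraries and favours small differences within a line. A lack of calls therefore does not show that these genes were unchanged. Tagap, Wdfy1, Abhd1 and Med1 were not called for either label, in comparisons in which edgeR called 14.7% (Cep120 KO) and 0.0% (Pkd1 KO) of all genes. The 95% intervals below are normal approximations from the SE and are somewhat too narrow for so few libraries. For Cep120 KO their log2 differences were 0.01 (95% interval -0.68 to 0.71), 0.16 (-0.54 to 0.86), -0.4 (-1.23 to 0.44) and 0.1 (-0.44 to 0.63), with edgeR adjusted p of 0.982, 0.788, 0.543 and 0.833. For Pkd1 KO they were 0.48 (-0.65 to 1.61), 0.58 (-0.26 to 1.42), 0.56 (-0.56 to 1.69) and -0.29 (-0.89 to 0.3), each with an edgeR adjusted p of 1.0.

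For Rin3 the difference between the lines rested on the Cep120-line controls, and the comparison of Cep120 KO with those controls uses the same low values. That comparison is therefore given as a description, with no test. The libraries labelled Cep120 KO were at a mean log2 difference of 4.54 (SE 0.86) from their controls. All 5 of these libraries lay above all 3 controls, as they did for 6.41% of genes tested, and nothing is read from this for a gene chosen on the same controls. Without control 1, which held 4 of the reads, the difference was 6.21. It was 4.85 without libraries 4, 5, 6 and 7, which left library 2 as the only one labelled Cep120 KO. The controls' counts of 0 to 4 reads limit the precision of the fold. In the Pkd1 line Rin3 differed by -0.55 on the log2 scale between the labels (SE 0.69, edgeR adjusted p = 1.0). The difference between the KO effects was called for 0.0% of genes in edgeR, with 3436 at an unadjusted p under 0.05, and for 723 in DESeq2. For Rin3 it was 5.09 (SE 1.1), which draws on the same controls and is given with no test.

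**Figure D3:**
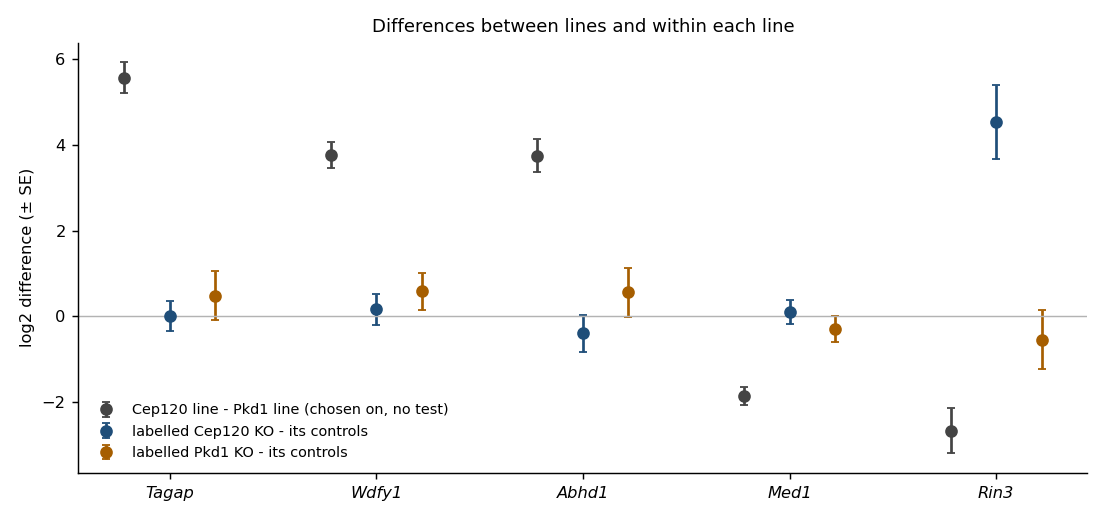
Points are fitted log2 differences with their SE for each gene: between the lines (grey, the comparison the genes were chosen on, not tested), and between the KO label and its controls in the Cep120 (blue) and Pkd1 (orange) lines. The within-line points of Tagap, Wdfy1, Abhd1 and Med1 lie between -0.4 and 0.58, while Rin3, whose low Cep120-line controls enter both its grey and its blue point, is at 4.54 in the Cep120 line.

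No transcript of the 5 genes was called for either KO label. Of 34209 transcripts tested, 1 (0.00292%) was called for Cep120 KO and 0 for Pkd1 KO in edgeR, with 6453 and 1039 at an unadjusted p under 0.05. The coding transcript ENSMUST00000133820 held nearly all transcript reads of Rin3 in the Cep120 line, over rows with 59.3% of the gene's reads, and its log2 difference for Cep120 KO was 4.43 (SE 1.98), again against the same low controls.

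Markers of blood cells, in which Tagap and Rin3 are best known, were set beside these values. Of 7 T and B lymphocyte markers, 2 (Lck and Cd79a) passed the filter, Cd3d and Cd8a were at 0 in all libraries, and Cd3e, Cd3g and Cd4 were at 0.622 CPM or below. The summed level of the list was 13.0 to 62.7 CPM in the Cep120 line and 53.2 to 63.8 CPM in the Pkd1 line, in which Tagap was low. Of 7 macrophage and leukocyte markers all passed the filter. Their sum was 66.1 to 74.1 CPM in Cep120-line controls, where Rin3 was lowest, and 20.5 to 28.0 CPM in the libraries labelled Cep120 KO, where it was higher. Coro1a, a coronin of blood cells, made up most of this sum in the controls, at 36.7 to 54.5 CPM, against 9.24 to 18.1 CPM in the libraries labelled Cep120 KO. Tyrobp was also higher in all controls, at 1.36 to 4.7 CPM against 0.16 to 0.824 CPM. So was Laptm5, at 7.3 to 9.07 CPM against 0.131 to 6.85 CPM. Ptprc, Csf1r, Cd68 and Aif1 overlapped between the controls and the libraries labelled Cep120 KO. Ptprc, the pan-leukocyte gene CD45, was at 2.94 to 6.16 CPM in the former and 0.537 to 3.82 CPM in the latter. Csf1r, a receptor of macrophages, was at 1.93 to 5.16 CPM in the former and 0.0 to 3.51 CPM in the latter, and the macrophage gene Cd68 at 0.862 to 5.52 and 0.918 to 3.51 CPM, with control 2 the lowest of all 8 libraries for Cd68. The sum was 31.9 to 42.5 CPM over both groups of the Pkd1 line. In bulk samples, fewer cells of a type and less RNA per cell cannot be told apart. Xist and the Y-linked Ddx3y were both found in most libraries, with ranges of 0.0 to 143.0 and 8.8 to 32.8 CPM in the Cep120 line and 0.0 to 51.6 and 11.8 to 30.6 CPM in the Pkd1 line. The part of these other cells and of sex in the differences was not tested.

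No neighbour of the 5 genes was called between the lines. Of 132 other tested genes starting within 1 Mb of their starts, 0 were called in edgeR, 16 had an unadjusted p under 0.05 and 0 were without overlap between the lines. Over all 16876 genes tested, 0.521% were called, 1836 had an unadjusted p under 0.05 and 0.806% were without overlap. With shares this low, nothing is read from counts of 0 among 132 genes. The smallest adjusted p was 0.151. The largest difference, picked out after its value was seen, was that of Slc30a3 near Abhd1 (5.04, SE 1.62, edgeR adjusted p = 0.281), which rested on less than 1 CPM in each line. The median log2 difference was 0.04, equal to that of all genes. The neighbours numbered 11 for Tagap, 8 for Wdfy1, 46 for Abhd1, 49 for Med1 and 18 for Rin3. DESeq2 called 2 of them, Stac2 higher and Rbks lower in the Cep120 line, and limma-voom called 0. With edgeR, 4 were called without library 2 labelled Cep120 KO, and 1, Serpine2, without libraries 6 and 7.

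The nearest tested genes on each side, by start position, gave these values, none called. For Tagap, E430024P14Rik was at -1.17 on the log2 scale (SE 0.62, edgeR adjusted p = 0.505) and Rsph3a at -0.34 (SE 0.18, adjusted p = 0.507). E430024P14Rik, on the minus strand at 7881106 to 7946426, spans all of Tagap. The library kit does not mark strand, and whether reads of these overlapping genes were shared was not tested. For Wdfy1, Ap1s3 was at 0.02 (SE 0.23) and Mrpl44 at -0.11. For Abhd1, Cgref1 was at 0.42 (SE 0.41) and Preb at 0.4. For Med1, Fbxl20 was at 0.08 (SE 0.16) and Cdk12, a kinase of RNA polymerase II, at 0.22 (SE 0.28). For Rin3, Cpsf2 was at -0.1 (SE 0.11) and Lgmn, which encodes the protease legumain, at 0.23 (SE 0.12). The closest called genes on the same chromosomes were Lbh, 64.99 Mb from Tagap, Traf3ip1, 11.79 Mb from Wdfy1, Gm15614, 1.56 Mb from Abhd1, Hoxb4, 1.83 Mb from Med1 (a distance of -1.83 Mb from its start), and Rps19-ps6, 8.62 Mb from Rin3.

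**Figure D4:**
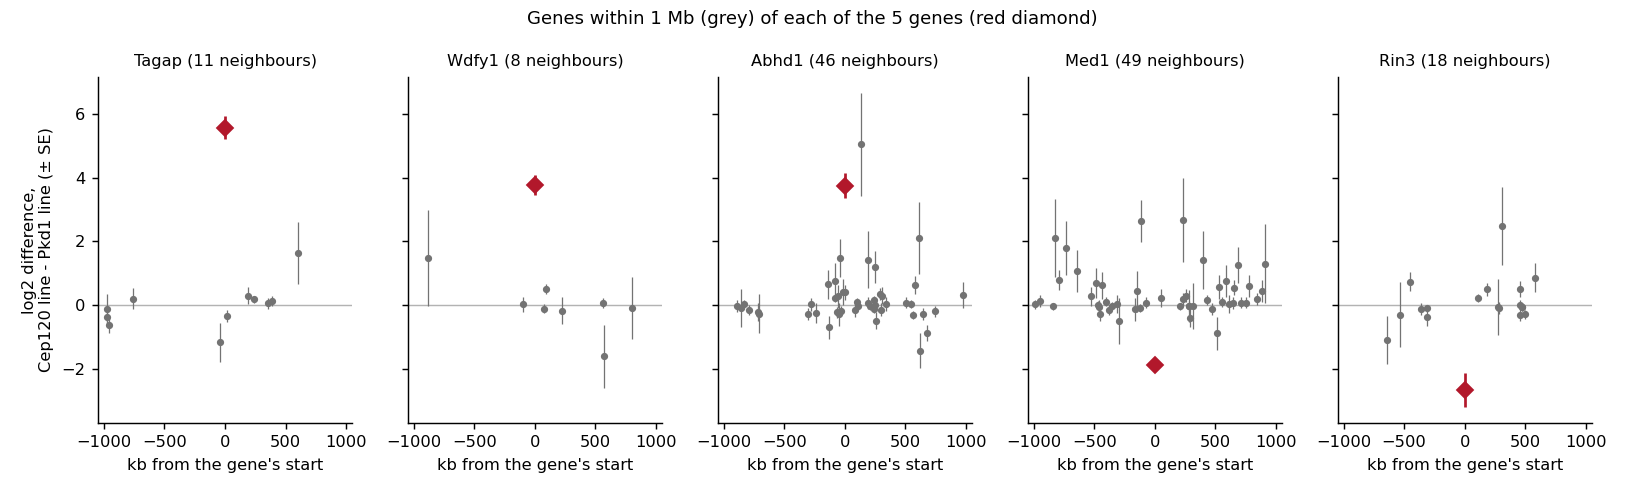
Grey points are the log2 differences between the lines (with SE) of tested genes starting within 1 Mb of each of the 5 genes, plotted by distance in kb, and the red diamond is the gene itself. None of the 132 grey points was called by edgeR, against 0.521% of all genes tested, and those far from 0 have wide errors.

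Relatives and partners of the 5 genes were counted next. In the comparison of the lines, 0 of 32 other Mediator subunits, 0 of 18 genes of the RIN family and RAB5 cycle, 0 of 18 of the WDFY family and PI3P-binding endosomal proteins, 0 of 37 relatives of Tagap among GTPase-activating proteins and 0 of 17 of the ABHD family were called by edgeR. At an unadjusted p under 0.05 there were 4, 1, 0, 6 and 1 of them. Among all 16876 genes tested, edgeR called 0.521%, and 1836 had an unadjusted p under 0.05. With so low a share called, nothing is read from counts of 0 in lists of 17 to 37 genes. DESeq2 called 1 gene of these lists, Arhgap26, and limma-voom called 0. Without library 2 labelled Cep120 KO, edgeR called 2 Mediator subunits (Med10 and Med15), 2 genes of the RAB5 list (Rab31 and Rabep2) and 3 relatives of Tagap (Arhgap21, Arhgap26 and Arhgap31). Between the libraries labelled KO it called Med10, Med15 and Arhgap21. With any other single library left out it called 0. The median log2 differences were -0.04, 0.06, 0.09, 0.16 and -0.07, against 0.04 over all genes. Other Mediator subunits lay between -0.57 and 0.59.

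In the libraries labelled Cep120 KO against their own controls, 5 of the 18 genes of the RIN family and RAB5 cycle rose and none fell, against 8.4% of all genes called higher and 6.26% called lower. These calls, and those of the other lists, depended on single libraries: edgeR called 0 genes of all 5 lists without any one of Cep120-line controls 1, 2 and 3, without library 7 labelled Cep120 KO, and in a fit of the Cep120 line alone. Without library 6 it called 1 higher and 1 lower Mediator subunit and 0 of the other lists. Of the RAB5 list it called 1 without library 4, library 5 or any one library of the Pkd1 line, and 7 higher and 1 lower without library 2. The number of all genes called, 2475, ran from 2 to 5719 over these omissions. The 5 genes of the RAB5 list were Rin1, another RAB5 exchange factor (log2 difference 2.95, SE 0.88), the rabaptins Rabep1 (1.7, SE 0.5) and Rabep2 (2.06, SE 0.63), which bind active RAB5, Gapvd1 (0.82, SE 0.2) and the adaptor Cd2ap (1.16, SE 0.34). Of Mediator subunits 4 rose and 3 fell. Med15, a tail subunit, rose by 1.0 (SE 0.21, adjusted p = 0.029), and Med21, a middle subunit, fell by 0.91 (SE 0.16, adjusted p = 0.029). Of the PI3P-binding list Hgs, a component of the ESCRT machinery, Rufy1 and the lipid kinase Pikfyve rose, by 2.5 (SE 0.62), 1.25 (SE 0.37) and 0.75 (SE 0.23). Of the GTPase-activating proteins 6 rose, among them Arhgap33 (1.95, SE 0.46) and Srgap1 (3.58, SE 0.96), and of the ABHD family Abhd14a alone was called, falling by 0.74 (SE 0.17). The median log2 differences were 0.38 for the RAB5 list, 0.05 for Mediator, 0.73 for the PI3P list, 0.56 for the relatives of Tagap and -0.12 for the ABHD list, against 0.12 over all genes. The summed nephron progenitor markers, RNA of another cell type, ran from 27.7 to 761 CPM in the libraries labelled Cep120 KO and from 48.7 to 63.6 CPM in their controls, so the group reached both below and above its controls, and the part of these cells was not tested. With all libraries, limma-voom called 2 higher and 6 lower Mediator subunits, 2 higher genes of the RAB5 list and 0 of the PI3P list. For Pkd1 KO no gene of the lists was called, as for all 16876 genes in edgeR, with 259 genes at an unadjusted p under 0.05 and 3 called by DESeq2.

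**Figure D5:**
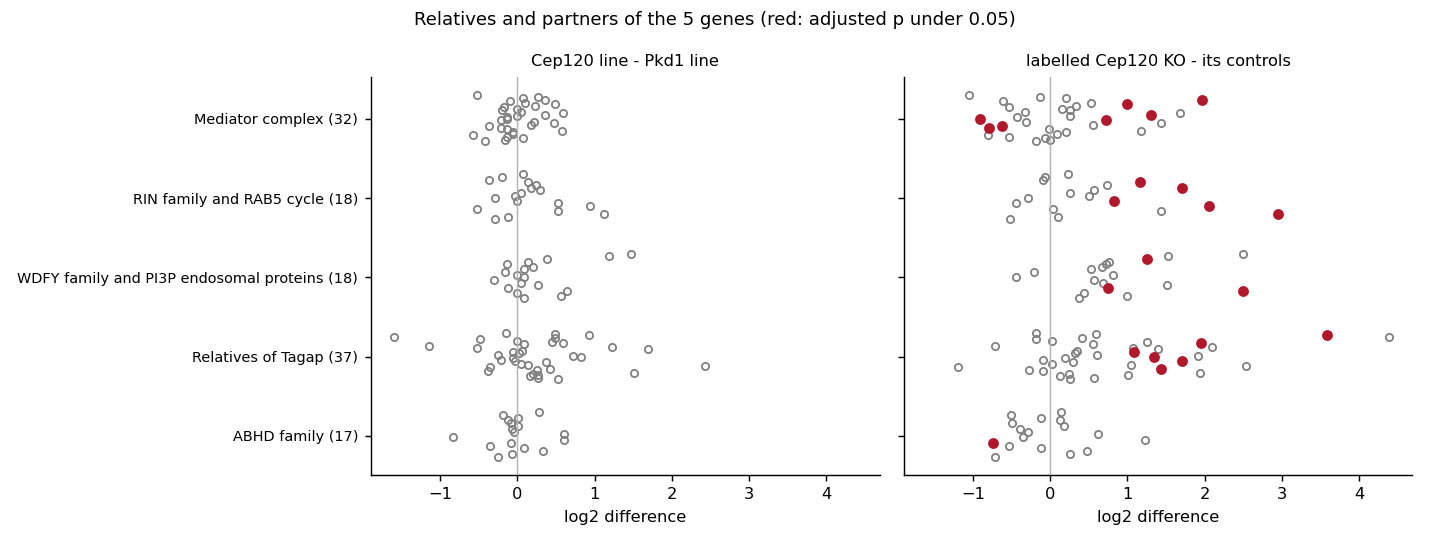
Each circle is a relative or partner gene in the list named on the left (number tested in brackets), placed by its log2 difference between the lines (left panel) or between Cep120 KO libraries, as labelled, and their controls (right panel). Filled red circles were called at an adjusted p under 0.05: 0 in the left panel, and 4 higher and 3 lower Mediator subunits and 5 higher RAB5 genes among those in the right one. Of all genes tested, 0.521% were called in the comparison on the left and 14.7% in that on the right.

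Genes whose pattern over the 14 libraries was most like that of each of the 5 were found by Pearson's r of log2 CPM. The r is a description, since the libraries fall into lines and share their scaling. Tagap was most like the processed pseudogene Gm45660 (r = 0.986), Wdfy1 (0.982) and Gm11868 (0.977), and Wdfy1 like Tagap, Gm45660 (0.964) and Gm6548 (0.963). Abhd1 was most like Tagap (0.961), Wdfy1 (0.951) and 1700023H06Rik (0.945). Med1 was most like the pseudogenes Gm10154 (0.937), Hmgb1-ps2 (0.915) and Rpl34-ps1 (0.883). Rin3 was less closely matched, by Sh2b2 (0.838), the Y-linked Gm47283 (0.835) and Gm50069 (0.829). After removal of each line's mean, the r between Tagap and Wdfy1 was 0.71, between Tagap and Abhd1 0.41 and between Abhd1 and Med1 -0.03.

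The same kind of separation was seen in other genes, many of them pseudogenes. Pseudogenes were 27 of the 88 genes called between the lines (30.7%) and 1101 of the 16876 tested (6.52%). Among called genes without overlap, Gm45660 (28.0 CPM in the Cep120 line and 0.0115 in the Pkd1 line, log2 difference 11.19), the histone gene H2ac12 (125.0 and 0.239 CPM, 9.03), Rps15a-ps8 (7.79), Gm15614 (6.83) and Gm45315 (155.0 and 1.88 CPM, 6.38) were highest in the Cep120 line. Gm10154 (0.0295 and 2.29 CPM, -6.12), Gm49538 (-4.11), the ribosomal protein pseudogenes Rpl34-ps1 (16.2 and 251.0 CPM, -3.91) and Rps13-ps2 (33.5 and 206.0 CPM, -2.65), and Gm13577 (-2.06) were highest in the Pkd1 line. Reads of processed pseudogenes and of histone genes can be shared with near-identical copies, so these levels are uncertain. On this scale Tagap, at 5.57, had the 17th largest absolute difference among all genes tested, and Med1, at -1.87, the 513th.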

How the data were processed

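Bulk RNA-seq libraries (14) of GFP-sorted ureteric bud cells were grouped by title and genotype label. The values tested are estimated counts per gene and per transcript, which the authors deposited without normalization. DRAGEN and the build mm9 are named in the submitters' processing notes. How reads were aligned, which annotation was used and how multiply placed reads were handled is not given in the sources used here. Of 55774 gene rows, 287 that repeated an identifier were dropped, and counts were rounded to whole numbers. TPM values and log2 CPM values are as the authors deposited them, and the latter served only for an alternative test. Gene positions and transcript sequences are from the GENCODE M21 annotation (GRCm38), matched by Ensembl identifier for 55141 genes.

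With R 4.3.3 and edgeR 4.0.16, filterByExpr (minimum count 10) left 16876 genes, which were TMM-scaled and fitted by quasi-likelihood with 4 group means (10 degrees of freedom). P-values were adjusted by Benjamini-Hochberg over all genes. The contrast between lines is the mean of both Cep120-line group means minus that of the Pkd1 line. CPM values in the text were computed from the counts with TMM. The fits were tested on simulated data. Alternatives used DESeq2 1.42.0, limma 3.58.1, other scaling, no filter, other groupings and omitted libraries.

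The 5 genes and the lists of relatives and markers were chosen with earlier results of these data known. Genes named are the 5, the targeted genes, Tagap1, for each of the 5 the 3 with the highest Pearson r (log2 CPM, prior count 2) and the nearest tested gene on each side, up to 5 called genes in each direction without overlap between the lines (Xist and Y-linked genes left out), and up to 3 called genes per list in the comparison of the lines. Genes of the lists named for Cep120 KO, Mrpl44 and Preb as overlapping genes, the marker genes, genes called only under an alternative, and the nearest called genes were named after their values were seen. 1 of the markers first listed is not reported here and is left out of the counts and sums.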

Additional observations from a re-analysis of the deposited data

How the results depend on the processing

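The signs of the line differences of the 5 genes held under all 24 alternatives. For Tagap, Wdfy1, Abhd1 and Med1, whose lines did not overlap, omitting or regrouping libraries could not change the sign. Ranges were 5.34 to 5.8 for Tagap, 3.29 to 3.97 for Wdfy1, 3.27 to 4.23 for Abhd1 and -2.2 to -1.67 for Med1. For Rin3 they were -5.22 to -0.13, with -1.05 from 2 line means and -3.51 without Cep120-line control 1. The causes of the changes below were not tested.

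Genes called between the lines numbered 88, and 21 between controls only, 268 between KO labels only, 363 in DESeq2, 218 without Cep120 KO libraries 4, 5, 6 and 7, 187 without 6 and 7, and 42.0 to 945.0 with 1 library left out (945 without Cep120 KO 2, 42 to 50 without any Cep120-line control or any Pkd1-line library). For Cep120 KO they numbered 2475 (1418 higher), 4199 in DESeq2, 0 in the Cep120 line alone (4081 at an unadjusted p under 0.05) and 1028 without libraries 6 and 7. With 1 library left out they ran from 2.0 to 5719.0 (5719 without Cep120 KO 2, 314 without KO 6, 8 without KO 7, 2, 6 and 3 without Cep120-line controls 1, 2 and 3, and 1296 to 1557 without any other). The higher calls were 682 of 2030 in limma-voom and 2638 of 3194 on the deposited log2 values, where the median of all genes was 0.45 instead of 0.12. For Pkd1 KO there were 0 calls, 3 in DESeq2 and 3 in the Pkd1 line alone. For the difference between the KO effects there were 0 (3436 at an unadjusted p under 0.05), 723 in DESeq2, 1 without the filter, 1 on the deposited values and 4 without libraries 6 and 7. The range was 0.0 to 3140.0 with 1 library left out (3140 without Cep120 KO 2, 1 without Cep120-line control 2 or Pkd1-line control 1).

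Uncalled Cep120 KO differences that changed sign were those of Tagap (-0.01 with RLE and in DESeq2, -0.07 in limma-voom, -0.34 without libraries 4, 5, 6 and 7), Wdfy1 (-0.73 without these), Med1 (-0.53 without these, -0.26 without 6 and 7), Abhd1 (0.02 on the deposited values) and Tagap1 (0.29 there, 0.1 without 6 and 7). With 1 library left out they ran from -0.25 to 0.25 for Tagap, -0.08 to 0.34 for Wdfy1, -0.19 to 0.34 for Med1 and -0.22 to 0.02 for Tagap1. The difference between KO effects was -0.24 for Med1 without libraries 4, 5, 6 and 7. Omission of these 4 left library 2 as the only one labelled Cep120 KO, so the KO differences without them rest on that library. Their omission from the KO contrasts, and that of 6 and 7 from the others, was chosen after seeing the data.

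Replicate numbers did not pair the Pkd1-line libraries: same-numbered deviations correlated at -0.045, -0.029 and -0.124. With the replicate number as a block, 0 genes were called and Rin3 differed by -0.67. No paired analysis was possible in the Cep120 line because its groups share only 1 replicate number.

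Depth limits Tagap in the Pkd1 line (2 to 6 reads per library) and Rin3 in Cep120-line controls (0 to 4 reads).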
